A study of Drosophila melanogaster with 14 samples.

Results

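Basement membrane genes were followed across RNA sequencing libraries of Drosophila melanogaster testes. The set holds 7 genes of the 16078 that could be joined across all libraries: the laminin alpha chain genes wb (wing blister) and LanA, the laminin beta and gamma chain genes LanB1 and LanB2, the type IV collagen gene vkg (viking), the perlecan gene trol and the nidogen gene Ndg. They were chosen by gene symbol, with the known result that wb was strongly higher in mip40 than in wild-type testes. All 7 were found in every library and all 7 passed the filter on low values (FPKM, a read count divided by transcript length and library size, reaching 1 in at least 2 libraries). Ndg passed only through its values in mip40 and mip40/bam. The 7 genotypes were mip40, comr, can, mip40/bam, bam and CG9879 mutants and wild type (wt), with 2 libraries each. Every library was made from polyadenylated RNA of 50 testes of males aged 3 days, and the labels call the libraries of a genotype biological replicates without saying whether they came from separate crosses. The labels name no allele or genetic background. The p-values therefore measure only the spread between these libraries.

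The basement membrane is a sheet of extracellular matrix under epithelia and around muscle, fat and gonads. Laminin trimers, each with an alpha, a beta and a gamma chain, form its base and bind integrins and dystroglycan on cells. Type IV collagen, made in flies from the vkg and Col4a1 chains, gives the sheet its strength, perlecan and nidogen tie the networks together, and haemocytes and fat body secrete much of the collagen. In the testis this matrix separates the muscle sheath from the germ cells and their cyst cells, and integrins anchor the somatic hub at the tip. The genotypes differ in how far germ cells develop. Spermatogonia of bam mutants keep dividing and do not become spermatocytes. Mutants of comr (a subunit of the testis-specific tMAC complex), can (a testis TAF, part of a testis form of TFIID) and mip40 (shared by tMAC and the related Myb-MuvB complex) arrest as primary spermatocytes.

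The libraries rested on about 3120000 to 7690000 fragments each, as worked out from the confidence intervals in the deposited tables. Germ cell markers followed the labels: the late germ cell list (dj, betaTub85D, fzo, CycB and Mst87F) summed to between 70.9 and 83 FPKM in the bam and mip40/bam libraries, against 10900 and 9990 FPKM in wt. CG9879 transcript was low in its mutant (0.756 and 1.3 FPKM) against 64 and 53.4 FPKM in wt. The mip40, comr and can transcripts stayed measurable in their own mutants. mip40 had 20.8 and 20.2 FPKM in mip40 testes against 22.8 and 20.9 FPKM in wt, but 105 and 99.6 FPKM in comr and 136 and 125 FPKM in can. It had 25.8 and 27.4 FPKM in mip40/bam against 59.1 and 60.4 FPKM in bam, so it was lower in both mip40 genotypes than in these mutants. comr in its mutant (19.2 and 17.8 FPKM) lay above wt (6.45 and 8.48 FPKM) and below mip40 (23.3 and 21.7 FPKM). can in its mutant (52.6 and 50.1 FPKM) overlapped with mip40 (58.5 and 47.6 FPKM). The comr and can levels therefore do not check those labels. The bam transcript had 2.91 FPKM and was listed at 0 in the bam libraries, and had 0.913 and 0.665 FPKM in mip40/bam, against 3.14 and 2.81 FPKM in wt, so bam replicate 1 was not below wt replicate 2. Accessory gland transcripts made up 1.79% of summed FPKM in comr replicate 2, 0.548% in CG9879 replicate 2, 0.422% in can replicate 1 and 0.343% in wt replicate 1, and at most 0.0451% in the other 10 libraries. FPKM is scaled to the whole library, and wt and CG9879 libraries carry very abundant late germ cell transcripts. Scaling by median of ratios, which lines the libraries up on their typical gene, moved genes of at least 10 FPKM down by a median of -1.10 (bam), -1.21 (comr) and -1.16 (can) on the log2 scale relative to wt. Comparisons among mutants moved by at most 0.13 under that scaling. Differences from wt are therefore given with both scalings. Ratios between genes of the same library are given beside them, which 1 factor per library leaves unchanged but quantile normalization does not.

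wb encodes one of the fly laminin alpha chains. It spans 65.2 kb on the plus strand of 2L (14263027 to 14328262, BDGP6, the positions of the deposited tables) and has 6 annotated transcripts. Its level was 48 and 59.6 FPKM in the mip40 libraries, against 2.66 and 2.76 FPKM in wt. In the other mutants it was 6.97 and 8.81 FPKM in comr, 7.04 and 9.47 FPKM in can, 4.33 and 4.97 FPKM in mip40/bam, 10.1 and 8.81 FPKM in bam, and 1.77 and 1.71 FPKM in CG9879. Both mip40 libraries stood above all others. In the middle of the order can overlapped with bam and with comr, and the lower bam library was level with the higher comr library at the printed precision. The ratio of group means was 19.8 between mip40 and wt, 6.82 between mip40 and comr, and 6.51 between mip40 and can. These differences chose the gene and were not tested. With median-of-ratios scaling the log2 difference between mip40 and wt was 2.95, against 3.88 with FPKM as deposited.

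The proportions of the laminin chains also set the mip40 libraries apart. wb had 9.56 and 9.49 times the FPKM of LanA in the mip40 libraries, whereas the ratio lay between 0.539 and 1.3 in the other 12 libraries. wb alone made up 61.7% and 64% of the summed FPKM of the 4 laminin genes in mip40, and between 6.82% and 30.5% in the other 12 libraries. As wb was chosen for its level in mip40, these ratios are a description with no test. The ratio of LanB1 to LanB2, in which wb has no part, was also highest in mip40, at 5.79 and 5.7, against 1.45 to 3.42 in the other libraries. This ratio was not tested.

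**Figure D1:**
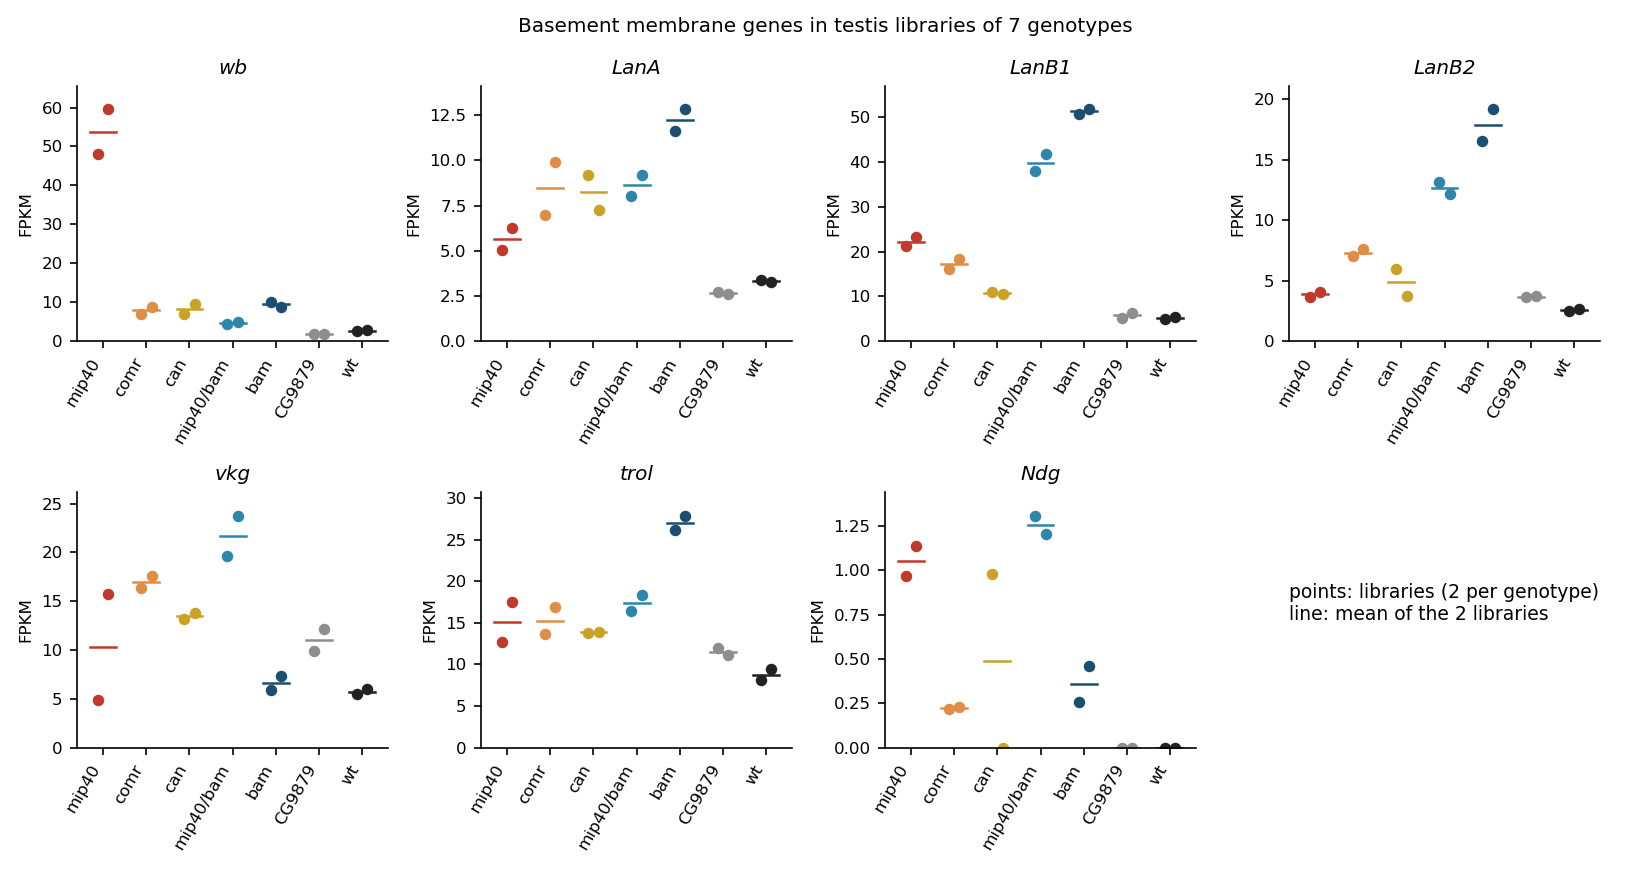
FPKM of the 7 basement membrane genes in each of the 14 testis libraries, by genotype, with a line at the mean of the 2 libraries. wb reaches 48 and 59.6 FPKM in mip40, the laminin chains LanA, LanB1 and LanB2 and trol are highest in bam, vkg is highest in mip40/bam, and the vkg values of the mip40 libraries lie apart (4.92 and 15.8 FPKM).

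**Figure D2:**
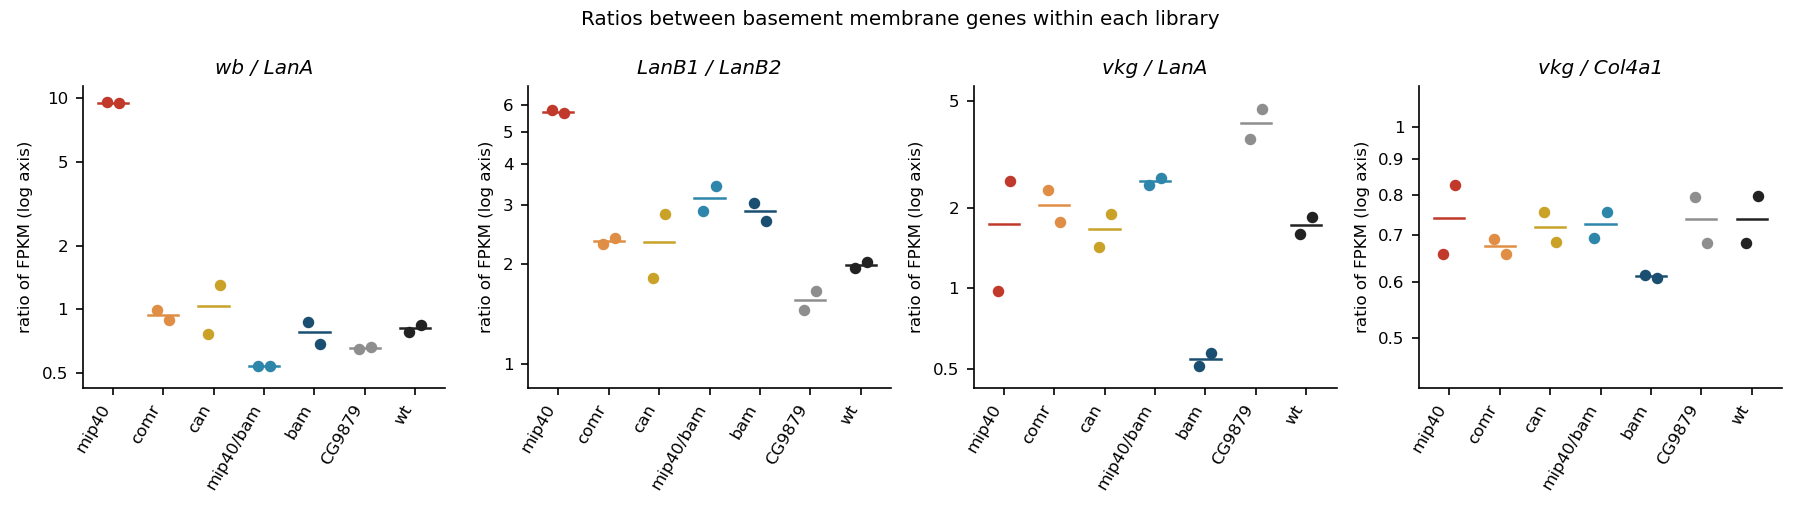
Ratios of FPKM between pairs of basement membrane genes within each library, on log axes, with a line at the group mean. The ratios of wb to LanA and of LanB1 to LanB2 are highest in the mip40 libraries, vkg to LanA is lowest in bam (0.51 and 0.574) and highest in CG9879 (3.61 and 4.68), and vkg to Col4a1 stays between 0.609 and 0.825 in all 14 libraries.

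LanA, the other alpha chain, followed a different order. Its level was 11.6 and 12.8 FPKM in bam, 8.04 and 9.2 FPKM in mip40/bam, 7.01 and 9.89 FPKM in comr and 9.21 and 7.26 FPKM in can. It was 5.01 and 6.28 FPKM in mip40, 2.73 and 2.59 FPKM in CG9879 and 3.4 and 3.28 FPKM in wt. The bam libraries were above all others, mip40/bam, comr and can overlapped, and mip40 lay between these and wt. LanA is on the minus strand of 3L (6203831 to 6218022).

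LanB1, the only beta chain of the fly laminins, had the widest range of the chains shared by all laminins. The values were 50.8 and 51.8 FPKM in bam, 38 and 41.7 FPKM in mip40/bam, 21.1 and 23.2 FPKM in mip40, 16.1 and 18.2 FPKM in comr and 10.9 and 10.6 FPKM in can. They were 5.25 and 6.2 FPKM in CG9879 and 4.85 and 5.35 FPKM in wt. Neighbours in this order did not overlap except CG9879 and wt. LanB1 lies on the plus strand of 2L (7811438 to 7820771).

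LanB2, the gamma chain, measured 16.6 and 19.2 FPKM in bam, 13.2 and 12.2 FPKM in mip40/bam, 7.01 and 7.62 FPKM in comr, 5.98 and 3.73 FPKM in can, and 3.65 and 4.07 FPKM in mip40. It measured 3.62 and 3.73 FPKM in CG9879 and 2.49 and 2.64 FPKM in wt. Here can, mip40 and CG9879 overlapped. LanB2 lies on the plus strand of 3L (9614914 to 9623980). Over the 7 group means of log2(FPKM + 1), LanA, LanB1 and LanB2 had Pearson correlations of 0.84 to 0.89 with each other and of 0.86 to 0.92 with trol, while wb had -0.07 to 0.62 with the other 6 genes. These points share their libraries and scaling, and the correlations are a description only.

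Testes of bam mutants, rich in spermatogonia, carried more laminin and perlecan transcript than wt, relative to library size. Of 6 members tested (wb left out), 4 were higher and none lower at an adjusted p under 0.05 (limma, Benjamini-Hochberg over 12971 genes), while 44.2% of all genes were called higher and 34.4% lower. LanB1 rose by 3.10 on the log2 scale (SE 0.10, adjusted p = 2.15e-09), LanB2 by 2.40 (SE 0.17, adjusted p = 6.69e-07), LanA by 1.61 (SE 0.17, adjusted p = 1.61e-05) and trol by 1.52 (SE 0.15, adjusted p = 9.08e-06). With median-of-ratios scaling these differences were 2.09, 1.48, 0.66 and 0.47, and all 4 still passed. vkg did not pass with either (0.18 as deposited, -0.81 with median of ratios). The authors' deposited table, per transcript on the older BDGP5 annotation, gave vkg 3.77 FPKM in bam and 7.34 FPKM in wt (q = 0.000197), so the sign for vkg depends on the processing. In bulk testes fewer cells of a type and less RNA per cell cannot be told apart. Early germ cell markers (vas, nos, zpg) summed to 1110 and 1050 FPKM in bam against 22.8 and 22.3 FPKM in wt. All 9 hub and cyst cell markers were above 0 in every library, with sums of 120 and 144 FPKM in bam against 63 and 56.9 FPKM in wt. Their means were higher in bam for 6 and lower for 3, with the hub marker Fas3 at 54.4 and 64.2 FPKM in bam against 16 and 10.9 FPKM in wt, and the hub ligand gene os at 0.44 and 0.483 FPKM in bam against 11.3 FPKM in each wt library. The muscle list (17 genes) summed to 192 and 262 FPKM in bam against 696 and 694 FPKM in wt, with lower means in bam for 14 and higher means for 3. The actin gene Act87E alone had 4.39 and 6.07 FPKM in bam against 311 and 322 FPKM in wt. The part of these markers in the laminin differences was not tested.

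In comr and can testes the laminin chains lay above wt with FPKM as deposited, and the size of that difference depended on the scaling. In comr 5 of 6 members were higher and none lower, beside 48.5% of all genes called higher and 27.9% lower. In can 5 of 6 were higher as well and none lower, beside 51% and 20.4%. LanB1 differed by 1.57 in comr (SE 0.10, adjusted p = 3.97e-07) and by 0.94 in can (SE 0.10, adjusted p = 2.22e-05). With median-of-ratios scaling LanB1 kept a higher level in comr (0.47, adjusted p = 0.00556) but not in can (-0.10, adjusted p = 0.505), trol fell in both (-0.42 in comr, -0.48 in can), and LanA, LanB2 and vkg passed in neither. With quantile normalization the differences in comr were larger than with FPKM as deposited for LanB1 (1.71), LanB2 (1.66), LanA (1.53) and vkg (1.47), and smaller for trol (0.48). Ndg, close to the limit of detection, moved from 0.29 to 0.52 and gained a call (adjusted p = 0.0204). In can LanB1 differed by 0.43 and LanA by 0.61 with that normalization. Without the 4 libraries that held accessory gland transcripts (1 each of comr, can, CG9879 and wt), 3 members were called in comr and 2 in can. These comparisons share the wt libraries with each other and with bam.

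For CG9879 against wt none of 6 members passed the test with limma, beside 11.5% of all genes called in either direction. LanB2 and trol had an unadjusted p under 0.05, which makes 2 of 6, beside 24.8% of all genes. LanB1 differed by 0.14 (95% interval -0.09 to 0.37) and LanA by -0.24 (-0.64 to 0.15). vkg was 9.86 and 12.2 FPKM in CG9879 against 5.45 and 6.04 FPKM in wt, a difference of 0.83 (-0.04 to 1.69, adjusted p = 0.224). In the authors' deposited table vkg had 10.1 FPKM in CG9879 and 5.51 FPKM in wt with q = 0.00621. Both vkg libraries of CG9879 thus stood above wt without passing the test across all genes.

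For mip40 against wt the members have values and no test. LanB1 differed by 1.93 on the log2 scale, trol by 0.71, LanA by 0.61, vkg by 0.56 and LanB2 by 0.45. With median-of-ratios scaling LanB1 remained above wt (0.94), while LanA (-0.30), LanB2 (-0.41), vkg (-0.41) and trol (-0.31) lay below it. Haemocyte markers summed to 135 and 122 FPKM in mip40 against 37.6 and 31.5 FPKM in wt, with higher means in mip40 for 3 of 7 and lower means for 3. Most of each sum was crq, at 106 and 88.8 FPKM in mip40 against 27.7 and 22.9 FPKM in wt. Hml had 24.2 and 27.7 FPKM in mip40 against 3.95 and 3.65 FPKM in wt. The sums thus do not show the direction of the list as a whole. Muscle markers summed to 161 and 267 FPKM in mip40 against 696 and 694 FPKM in wt, with lower means in mip40 for 16 of 17. The part of these markers was not tested. The wb gene holds another gene, CG32971, on the same strand within its introns, without exon overlap. That gene had 304 and 238 FPKM in mip40 and 380 and 388 FPKM in bam, against 78.5 and 82.1 FPKM in wt, so it did not share the order of wb.

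**Figure D3:**
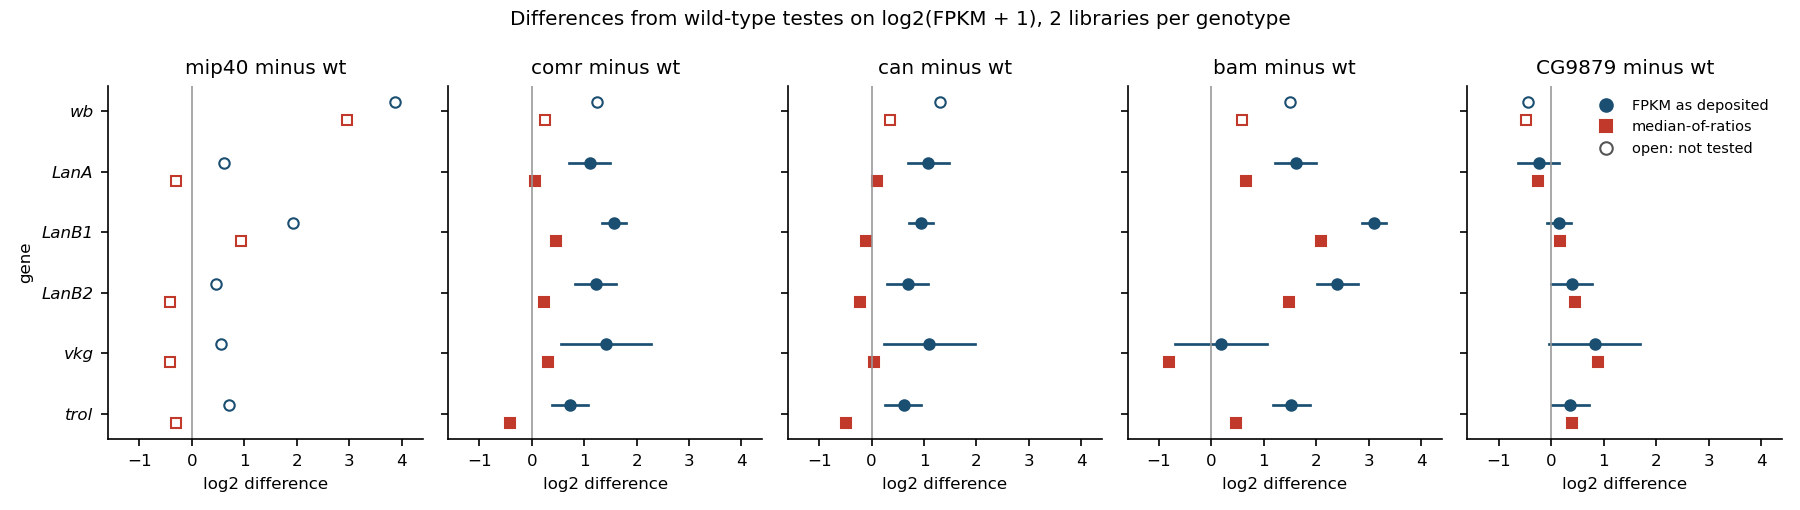
Differences from wt on log2(FPKM + 1) for 6 members in 5 mutants (circles: FPKM as deposited, with 95% intervals where tested; squares: median-of-ratios scaling; open symbols: not tested). The squares lie about 1 unit left of the circles in mip40, comr, can and bam, so that wb in mip40 and LanB1 and LanB2 in bam stay well above 0 while trol in comr and can crosses to below 0.

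The arrested spermatocyte mutants were also set against each other, where median-of-ratios scaling moved the values little and quantile normalization moved them more. Against comr, 2 of 6 members were higher and 2 lower in mip40, beside 22.6% and 23% of all genes. LanB1 rose by 0.35 (SE 0.10, adjusted p = 0.019) and Ndg by 0.75 (SE 0.26, adjusted p = 0.0441), while LanB2 fell by 0.78 (SE 0.17, adjusted p = 0.00526) and LanA by 0.50 (SE 0.17, adjusted p = 0.0443). Ndg passed the filter only through its values in mip40 and mip40/bam, so its call in mip40 is no independent support. It rested on about 4 and 5 fragments in the comr libraries, as worked out from the confidence intervals. The 2 members counted as higher include Ndg. Against can, LanB1 rose by 0.98 (SE 0.10, adjusted p = 4.91e-05) and LanA fell by 0.47 (SE 0.17, adjusted p = 0.0478), which makes 1 of 6 higher and 1 lower beside 19.2% and 32.4% of all genes. The fall of LanA in both comparisons and the rises of LanB1 and Ndg against comr no longer passed when 1 library was left out (adjusted p up to 0.274 for LanA against comr, 0.25 for LanA against can, 0.112 for LanB1 and 0.153 for Ndg). With median-of-ratios scaling LanA passed in neither (adjusted p = 0.107 against comr and 0.0737 against can). LanB1 against can and LanB2 against comr passed without any 1 library of their groups and with median of ratios. Both comparisons share the mip40 libraries. Between comr and can, LanB1 (0.63, SE 0.10, adjusted p = 0.000609) and LanB2 (0.53, SE 0.17, adjusted p = 0.0259) were higher in comr, beside 22.7% of all genes, and none of 7 was lower, beside 32%. LanB2 lost its call without comr replicate 1, comr replicate 2 or can replicate 2 (adjusted p up to 0.16). wb differed by -0.05 between comr and can (95% interval -0.44 to 0.33, adjusted p = 0.838), and by 0.84 with quantile normalization (adjusted p = 0.0084).

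Against bam, the shared laminin chains and trol fell in both arrest mutants, and vkg rose in comr. In comr 4 of 7 members were lower and 1 higher, beside 25% and 34.7% of all genes. LanB1 fell by 1.53 (SE 0.10, adjusted p = 8.6e-07), LanB2 by 1.18 (SE 0.17, adjusted p = 0.000217), trol by 0.79 (SE 0.15, adjusted p = 0.00142) and LanA by 0.50 (SE 0.17, adjusted p = 0.0327), and vkg rose by 1.24 (SE 0.38, adjusted p = 0.0193). The calls of LanA and vkg were lost when 1 library was left out, with an adjusted p of up to 0.227 for LanA and 0.0955 for vkg. In can 4 of 7 were lower and none higher, beside 27.1% and 47.5% of all genes, with LanB1 down by 2.16, LanB2 by 1.71, trol by 0.92 and LanA by 0.52. LanA lost its call in can without bam replicate 2 (adjusted p = 0.102) or can replicate 2 (0.137). vkg differed by 0.92 in can (95% interval 0.06 to 1.79, adjusted p = 0.0527), and with quantile normalization by 0.74 in comr (adjusted p = 0.164) and -0.09 in can (0.885). wb did not pass in either comparison: its difference was -0.24 in comr (95% interval -0.62 to 0.14) and -0.19 in can (-0.57 to 0.19), though quantile normalization gave -1.27 in can (adjusted p = 0.000472). With equal summed FPKM LanA passed in neither (adjusted p = 0.214 in comr and 0.287 in can). Both comparisons share the bam libraries. Early germ cell markers summed to 102 and 108 FPKM in comr and 52.3 and 42.7 FPKM in can, against 1110 and 1050 FPKM in bam. Hub and cyst cell markers summed to 42.4 and 50.2 FPKM in comr and 66.3 and 62.6 FPKM in can, against 120 and 144 FPKM in bam. Of these 9 markers 8 had lower means and 1 a higher mean in comr than in bam. In can 5 had higher means and 4 lower, with Fas3 at 8.78 and 6.56 FPKM against 54.4 and 64.2 FPKM in bam. Muscle markers summed to 494 and 662 FPKM in comr and 788 and 537 FPKM in can, against 192 and 262 FPKM in bam. The part of these markers was not tested.

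In the bam background, loss of mip40 went with less wb. wb was 4.33 and 4.97 FPKM in mip40/bam against 10.1 and 8.81 FPKM in bam, without overlap, and fell by 0.89 on the log2 scale (SE 0.17, 95% interval -1.27 to -0.51, adjusted p = 0.0028). Quantile normalization, which forces all libraries to 1 distribution, gave -0.54 (adjusted p = 0.0939). Of the 7 members 3 were lower and 1 higher, beside 19.7% and 16.4% of all genes. trol fell by 0.61 (SE 0.15, adjusted p = 0.0124) and LanB1 by 0.36 (SE 0.10, adjusted p = 0.0222), and both lost the call without 1 library (adjusted p up to 0.0869 for trol and 0.147 for LanB1). LanB1 also missed the threshold with median of ratios (-0.31, adjusted p = 0.0687). LanA and LanB2 each differed by -0.46 without passing (adjusted p = 0.0714 for LanA and 0.0644 for LanB2), with both mip40/bam libraries below both bam libraries. In the authors' deposited table the wb transcript CG15288-RB had 4.2 FPKM in mip40/bam and 8.69 FPKM in bam (q = 0.0153). Hub and cyst cell markers summed to 100 and 92.8 FPKM in mip40/bam against 120 and 144 FPKM in bam, and early germ cell markers to 903 and 920 FPKM against 1110 and 1050 FPKM. Their part in these differences was not tested.

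**Figure D4:**
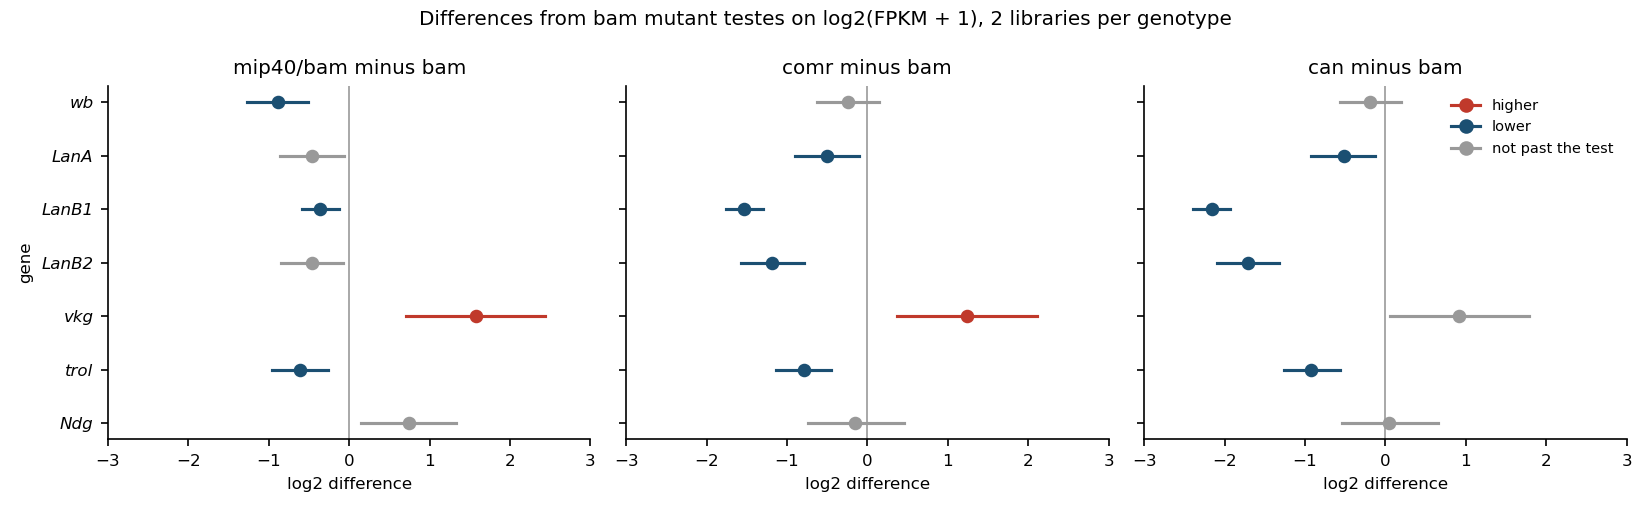
Differences from bam testes on log2(FPKM + 1) for the 7 members in mip40/bam, comr and can, with 95% intervals from limma, coloured by the test at an adjusted p under 0.05. LanB1 is lower in all 3 comparisons, vkg is on the opposite side of 0 from the laminin chains in each, and wb passes the test in mip40/bam only.

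vkg encodes a type IV collagen chain. Its level was 19.6 and 23.8 FPKM in mip40/bam, 16.4 and 17.5 FPKM in comr, 13.1 and 13.8 FPKM in can and 9.86 and 12.2 FPKM in CG9879. It was 5.94 and 7.37 FPKM in bam and 5.45 and 6.04 FPKM in wt, which overlapped. The mip40 libraries disagreed, with 4.92 FPKM in replicate 1 and 15.8 FPKM in replicate 2, so vkg is not ordered for mip40. The rise of vkg in mip40/bam over bam was 1.57 (SE 0.38, adjusted p = 0.0106), and its call was lost without bam replicate 1 (adjusted p = 0.067) or mip40/bam replicate 2 (0.0695). Col4a1, the partner chain, starts 1417 bases from vkg on the opposite strand of 2L (vkg 5012144 to 5028191, Col4a1 5029609 to 5037279). It had 28.2 and 31.4 FPKM in mip40/bam against 9.65 and 12.1 FPKM in bam and rose by 1.38 (SE 0.34, adjusted p = 0.0108), or by 0.97 with equal summed FPKM (adjusted p = 0.0557). In the mip40 libraries Col4a1 was discordant in the same direction as vkg, at 7.48 and 19.1 FPKM. Muscle markers summed to 763 and 692 FPKM in mip40/bam against 192 and 262 FPKM in bam, with higher means for 14 of 17 and lower for 3. They summed to 696 and 694 FPKM in wt, where vkg had its lowest mean. The part of the muscle markers was not tested. Haemocyte markers summed to 174 and 167 FPKM in mip40/bam and 146 and 181 FPKM in bam, most of it crq, while Hml was 1.54 and 1.28 FPKM in mip40/bam and 3.79 and 5.31 FPKM in bam.

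trol, which encodes perlecan, is a gene of 75 kb on the minus strand of X with 25 annotated transcripts. Its level was 26.1 and 27.9 FPKM in bam, 16.5 and 18.3 FPKM in mip40/bam, 13.6 and 16.9 FPKM in comr, 12.7 and 17.6 FPKM in mip40 and 13.8 and 13.9 FPKM in can. It was 12 and 11.1 FPKM in CG9879 and 8.15 and 9.41 FPKM in wt. Only bam at the top and CG9879 and wt at the bottom were free of overlap with the middle group. Ndg, the nidogen gene, stayed close to the limit of detection: 0.969 and 1.14 FPKM in mip40, 1.31 and 1.21 FPKM in mip40/bam, 0.22 and 0.228 FPKM in comr, 0.976 FPKM and listed at 0 in can, and 0.255 and 0.462 FPKM in bam. It was listed at 0 in both CG9879 and both wt libraries. Exons of Ndg overlap those of CG34222 on the opposite strand, which had 309 FPKM in each wt library and 41.2 and 59.2 FPKM in mip40, and no source says whether counting used strand. In the authors' deposited table Ndg transcript CG12908-RA had 0.707 FPKM in mip40 and 1.4 FPKM in wt, so its absence in wt depends on the table.

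Genes that work with the basement membrane were taken from 4 lists. Counts against wt are given with both scalings, for bam in all lists and for comr and can in the first. Of 9 further components (Col4a1, SPARC, Pxn, Ppn, Mp, Tig, dlp, dally and Sdc), 6 were higher and 2 lower in bam than in wt with FPKM as deposited and 2 were higher and 2 lower with median of ratios. As deposited, 44.2% of all genes were higher and 34.4% lower in that comparison. With median of ratios 38.3% of 9770 calls over all genes were higher, against 56.2% of 10201 as deposited. Shares given with a number of calls, here and below, are shares of the calls and not of all genes. In comr 5 of the 9 were higher and 2 lower than in wt as deposited, and 0 and 4 with median of ratios. In can 6 were higher and 3 lower as deposited, and 1 and 4 with median of ratios. As deposited, 48.5% of all genes were higher and 27.9% lower in comr, and 51% and 20.4% in can. Of the same 9 genes 2 were higher and 3 lower in mip40/bam than in bam. In mip40 2 were higher and 2 lower than in comr, and 3 were higher and 2 lower than in can. The shares of all genes called higher and lower were 16.4% and 19.7% for mip40/bam, 22.6% and 23% for mip40 against comr, and 19.2% and 32.4% for mip40 against can. dlp, a glypican that binds Wnt and Hedgehog ligands, had 74.3 and 71.9 FPKM in mip40, against 4.69 and 6.5 FPKM in comr and 9.34 and 9.31 FPKM in can. It rose by 3.50 over comr (SE 0.13, adjusted p = 4.01e-08) and by 2.84 over can (SE 0.13, adjusted p = 2.53e-07). Pxn, a peroxidase that cross-links type IV collagen, rose by 0.93 over comr (SE 0.23, adjusted p = 0.00894), at 14.2 and 16.6 FPKM in mip40 and 5.86 and 9.69 FPKM in comr. SPARC, a collagen-binding protein, had 104 and 105 FPKM in mip40/bam against 36.8 and 51.7 FPKM in bam, a rise of 1.24 (SE 0.23, adjusted p = 0.00262). In mip40 SPARC fell by 1.07 against comr (SE 0.23, adjusted p = 0.00482), where muscle markers summed to 161 and 267 FPKM in mip40 and 494 and 662 FPKM in comr, and their part was not tested. Col4a1 was also lower in mip40 than in comr, with means of 13.3 and 25.1 FPKM (adjusted p = 0.0386), but missed the threshold with median of ratios (adjusted p = 0.079). The median difference over the 9 genes was 1.09 in bam against wt, beside 0.21 over all genes (0.15 beside -0.46 with median of ratios), and -0.28 in mip40/bam against bam, beside 0.00.

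Among receptors, 9 of 10 listed genes passed the filter on low values. In bam 7 of 9 were higher than in wt and none lower (6 and 1 with median of ratios), in mip40/bam 1 was higher and 4 were lower than in bam, and in mip40 6 were higher and none lower than in can. Beside the counts as deposited, 44.2% of all genes were higher and 34.4% lower in bam, 16.4% and 19.7% in mip40/bam, and 19.2% and 32.4% in mip40. For bam against wt 38.3% of 9770 calls over all genes were higher with median of ratios, against 56.2% of 10201 as deposited. mys, the integrin beta subunit of muscle and other tissues, had 88 and 87.8 FPKM in bam against 17.9 and 16.7 FPKM in wt and rose by 2.28 (SE 0.09, adjusted p = 6.07e-09), or by 1.19 with median of ratios. It fell by 0.68 in mip40/bam (56.2 and 53.1 FPKM) against bam (SE 0.09, adjusted p = 0.000299). Dg, dystroglycan, fell by 0.71 in the same comparison, at 23.2 and 28.3 FPKM in mip40/bam and 44 and 41.4 FPKM in bam (SE 0.10, adjusted p = 0.000416). ItgaPS5, an integrin alpha subunit, had 4.66 and 4.94 FPKM in mip40/bam against 1.03 and 1.04 FPKM in bam and rose by 1.51 (SE 0.15, adjusted p = 9.17e-05). Itgbn, the other integrin beta subunit, had 22.2 and 23.7 FPKM in comr against 4.82 and 6.57 FPKM in can and rose by 1.85 (SE 0.21, adjusted p = 5.98e-05). Of 9 linker genes that join integrins to actin, 8 were higher and none lower in bam than in wt, beside the same 44.2% and 34.4% as deposited. With median of ratios 5 were higher and none lower. The same 38.3% of 9770 calls were higher with that scaling, a share of calls and not of all genes. In mip40/bam against bam 1 was higher and 2 were lower, beside 16.4% and 19.7% of all genes. In mip40 against comr 1 was higher and 4 were lower, beside 22.6% and 23%. With median of ratios these counts were 1 and 3, and 60.1% of 5214 calls over all genes were higher. In mip40 against can 1 was higher and none lower, beside 19.2% and 32.4%. The linker stck was listed at 0 in mip40 replicate 1 and comr replicate 2.

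Among 10 genes for secretion, modification and turnover of the matrix, 9 were higher and 1 lower in bam than in wt (7 and 2 with median of ratios), and 1 was higher and 6 lower in mip40/bam than in bam. As deposited, all genes were called higher and lower in shares of 44.2% and 34.4% in bam, and of 16.4% and 19.7% in mip40/bam. For bam against wt 38.3% of 9770 calls over all genes were higher with median of ratios, against 56.2% of 10201 as deposited. Mmp1, a secreted matrix metalloproteinase, had 74 and 61.2 FPKM in mip40/bam and 102 and 117 FPKM in bam and was listed at 0 in the other 10 libraries. Loxl1, a lysyl oxidase, was listed at 0 in both mip40/bam libraries, against 9.95 and 8.56 FPKM in bam. It was also listed at 0 in CG9879 and wt and lay between 7.44 and 15 FPKM in mip40, comr and can. An exact 0 can be a failed estimate in these tables: stck, an integrin linker, was listed at 0 in mip40 replicate 1 and had 15.6 FPKM in mip40 replicate 2. Timp, an inhibitor of matrix metalloproteinases, had 95.7 and 88.9 FPKM in mip40/bam against 28.2 and 41.9 FPKM in bam and rose by 1.40 (SE 0.27, adjusted p = 0.00313). SPARC, Timp, vkg and Col4a1 were thus called higher and wb, LanB1, trol, mys and Dg lower in mip40/bam than in bam. The calls of vkg, LanB1 and trol were lost without 1 library, and that of wb with quantile normalization. SPARC, Timp, Col4a1, mys and Dg were not checked with 1 library left out. With equal summed FPKM the rises of SPARC (0.82), Timp (0.98) and Col4a1 (0.97) were smaller, and Col4a1 missed the threshold. The falls of mys (-1.09) and Dg (-1.11) were larger with that scaling.

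**Figure D5:**
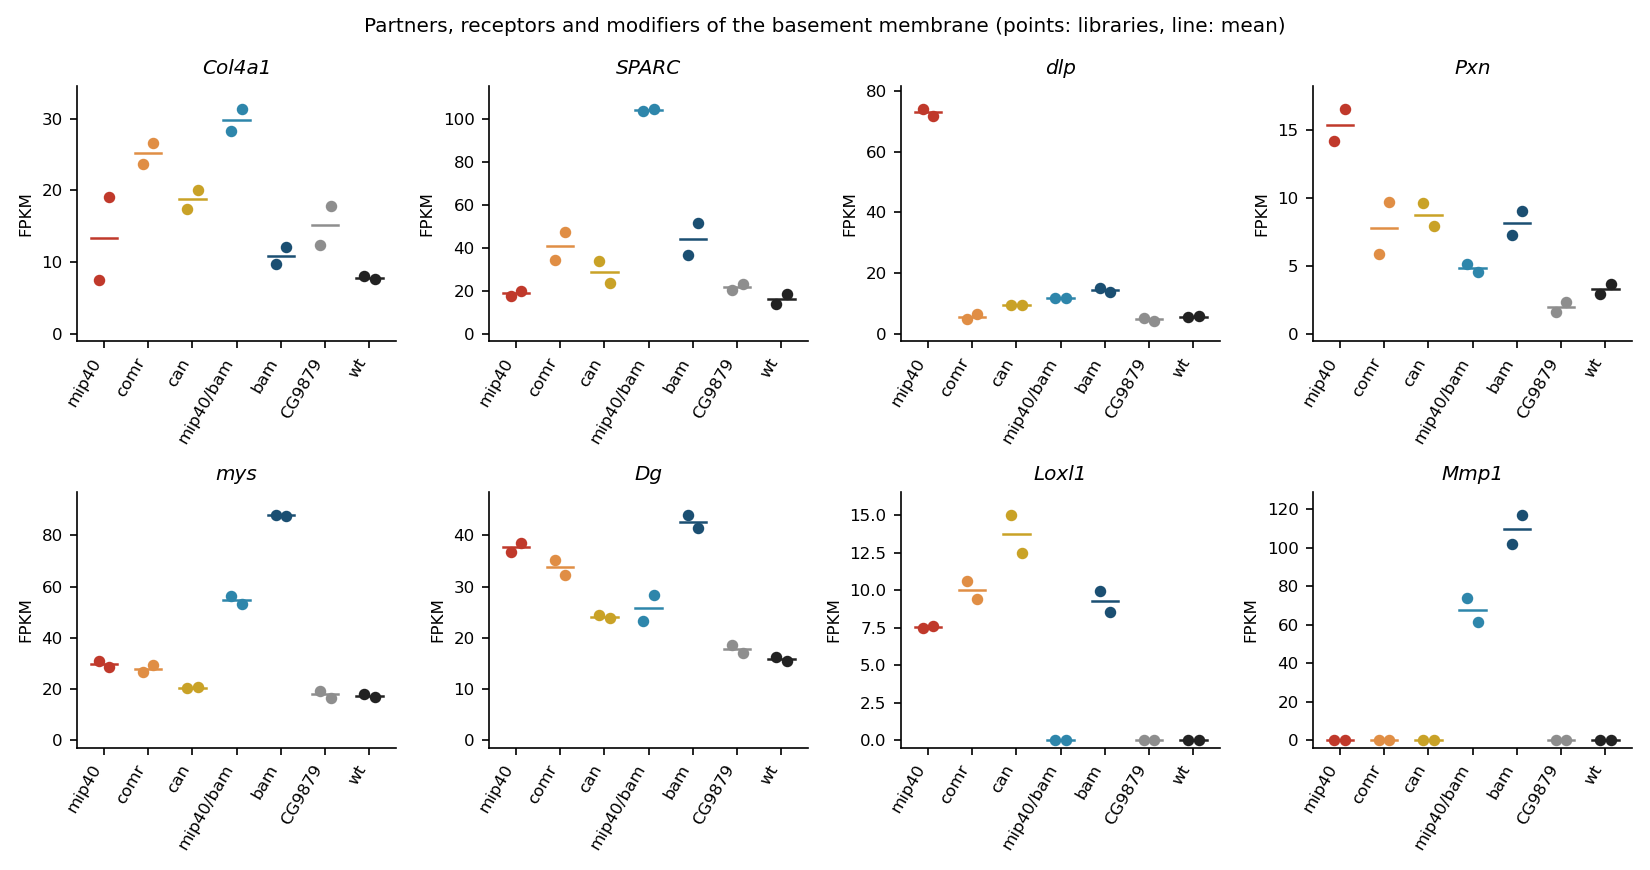
FPKM of 8 partner genes in each of the 14 testis libraries by genotype, with a line at the mean of the 2 libraries; points at 0 are listed at 0 in the tables. dlp stands at 74.3 and 71.9 FPKM in mip40, SPARC at 104 and 105 FPKM in mip40/bam, and Mmp1 is above 0 in mip40/bam and bam only.

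The genes whose 7 group means followed wb most closely were org-1 (r = 0.989), Cp7Fa (0.978), CG10178 (0.973), dysc (0.964) and CG31475 (0.964), of 12964 genes compared. Of these CG31475 was the most abundant, with a mean of 24 FPKM in mip40 and 3.51 FPKM in wt, while org-1 averaged 1.68 FPKM in mip40 and 0.217 FPKM in wt. A total of 12 genes reached r = 0.95 with wb. wb was chosen for its level in mip40, and all the genes named here had their highest mean there. The means of org-1, Cp7Fa and dysc were above 1 FPKM in mip40 only, so they passed the filter on low values mainly through that group. High r values with wb were thus partly fixed by the choice of wb and by the filter. The mean of LanA, LanB1 and LanB2 was followed by mts (0.998), sxc (0.998), Traf6 (0.997), zf30C (0.997) and CG4887 (0.997), and 715 genes reached 0.95 with it. mts averaged 520 FPKM in bam and 57.6 FPKM in wt. These are descriptions over 7 points from the same libraries.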

How the data were processed

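Polyadenylated RNA from 14 testis samples went into TruSeq libraries for the MiSeq, per the labels' protocols. Cufflinks and Cuffdiff are named, without versions, per the submitters' processing notes, and no source says whether counting was stranded. The authors deposited FPKM per gene for each library (BDGP6, with confidence bounds, from which fragments were worked out) and, per transcript on BDGP5, FPKM, log2 fold changes and q-values of 6 comparisons. The deposited log2 column of mip40/bam against bam was damaged and not used. CG9879 and mip40/bam tables used another annotation than the other 10, so annotation and genotype cannot be told apart there. Of 16084 genes at overlapping positions in all libraries, 15718 had identical start and end, which does not show identical exons.

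Tables were joined by symbol and position (16078 genes) and filtered to the 12971 that reached 1 FPKM in 2 or more libraries. limma 3.58.1 (R 4.3.3), with an intensity trend, was fitted to log2(FPKM + 1) over all 14 libraries and 7 groups (7 residual and 1.82 prior degrees of freedom). Contrasts were two-sided with Benjamini-Hochberg adjustment over all kept genes and called under 0.05. Fold changes on this scale understate those of low genes. The fit was also run on simulated data with normal noise, which checks the code and not these libraries. No count table was used, so depth limits only enter through the replicate spread. No tested contrast of wb compared mip40 or wt libraries, and no member was tested in mip40 against wt. The SE and p-values of wb still draw on its replicate spread in all 7 groups, mip40 and wt included. The members and gene lists were chosen with earlier results of these data known. Named genes were all members, in each comparison up to 2 list genes with the largest rise and 2 with the largest fall among those called, and Col4a1, SPARC, mys and Dg, and stck was named after its values were seen. Alternatives covered pseudocount, filter, scaling, replicate block, accessory gland libraries, groups fitted and each library left out. Python 3.11.15, numpy 2.4.6, pandas 2.3.3 and matplotlib 3.10.9 were used for tables and plots.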

Additional observations from a re-analysis of the deposited data

Results flagged for a closer look

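In all, 5 of the 7 genes differed in opposite directions between mip40 and wt and between mip40/bam and bam, in every library of each pair, as did 27.5% of the 12971 genes tested. wb differed by 3.88 on the log2(FPKM + 1) scale in mip40 over wt and by -0.89 in mip40/bam over bam. LanB1 differed by 1.93 and -0.36, trol by 0.71 and -0.61, LanA by 0.61 and -0.46 and LanB2 by 0.45 and -0.46 in the same order of comparisons. The difference between the comparisons was not tested, since the mip40 and wt values of wb chose the set. With median-of-ratios scaling LanA, LanB2 and trol were below wt in mip40 (-0.30 for LanA, -0.41 for LanB2 and -0.31 for trol), so for these 3 genes the opposite directions depend on the scaling, while wb (2.95) and LanB1 (0.94) stayed above wt. Groups of 2 libraries are too small to look for single samples that stand apart.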

How the results depend on the processing

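Of 823 values of single members with a test, over all alternatives, 702 kept their call, 81 lost it, 30 gained it and 10 changed direction with a call in either fit. The count of members called kept within 1.5 times of the reported one for bam against wt, comr against bam and can against bam under all settings that kept every library. For comr against wt it was 2 with median-of-ratios scaling and 3 when the 4 libraries over 0.3% accessory gland transcripts were dropped (chosen after seeing the data), instead of 5. For can against wt it was 1 with median of ratios, 2 with quantile normalization and 2 without those 4 libraries, instead of 5. For mip40/bam against bam it was 2 with quantile normalization and 7 in a fit of those groups alone, instead of 4. For mip40 against comr it was 2 with quantile normalization, 2 without the libraries above 0.5% and 1 in a fit of those groups alone, instead of 4. For mip40 against can it was 1 with a pseudocount of 0.1, no filter, median of ratios, equal summed FPKM or a fit of those groups alone, instead of 2. For comr against can it was 5 with quantile normalization, 1 without the libraries above 0.5% and 1 in a fit of those groups alone, instead of 2. Leaving out 1 library at a time gave 4 to 5 for bam, 5 to 6 for comr, 4 to 5 for can and 0 to 1 for CG9879 against wt, 2 to 6 for mip40/bam, 3 to 5 for comr and 3 to 5 for can against bam, 2 to 4 for mip40 against comr, 1 to 3 for mip40 against can and 1 to 2 for comr against can. The count fell to 2 for mip40/bam against bam without bam replicate 1, bam replicate 2 or mip40/bam replicate 1, to 3 for comr against bam without bam replicate 1 or comr replicate 1, and to 1 for comr against can without either comr library. For mip40 against comr and against can most libraries lowered it when left out. The median member difference of mip40 from wt was 0.71, with 0.49 to 1.10 when 1 library was left out and -0.30 with median of ratios.

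Directions turned with median of ratios for trol in comr (-0.42), LanB1 (-0.10), LanB2 (-0.23) and trol (-0.48) in can, and LanA (-0.30), LanB2 (-0.41) and trol (-0.31) in mip40, all against wt. Quantile normalization turned trol in can against wt (-0.18), Ndg in can against bam (-1.04), LanA in mip40 against can (0.04) and wb in comr against can (0.84). Ndg in can against bam was -0.44 without the 4 libraries and between -0.44 and 0.54 when 1 library was left out. The wb fall in mip40/bam was -0.54 (adjusted p = 0.0939) with quantile normalization. The cause was not tested.

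Replicate numbers did not pair the libraries: over 21 pairs of groups the correlation of their deviations ran from -0.48 to 0.48, with 4 over 0.1. A replicate block gave 2 members called for mip40 against comr and 1 for mip40 against can.

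Over all genes, the share of calls that were higher moved with the scaling. With median of ratios it was 38.3% instead of 56.2% in bam, 38.6% instead of 63.5% in comr and 37.4% instead of 71.4% in can against wt, and 60.1% instead of 49.6% in mip40 against comr. Quantile normalization gave 43.3% instead of 58.1% in comr and 43.4% instead of 63.7% in can against bam, 56.9% instead of 37.2% in mip40 against can and 61.5% instead of 41.5% in comr against can. Equal summed FPKM gave 18% instead of 45.4% in mip40/bam against bam and 69.1% instead of 49.6% in mip40 against comr. CG9879 against wt had 499 calls in a fit of those groups alone instead of 1492.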

Other observations

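In the authors' deposited tables, which list transcripts of the older BDGP5 annotation, the wb locus has transcripts whose values lie in opposite orders. CG15288-RB had 34.7 FPKM in mip40 and 1.75 FPKM in wt. CG32970-RA, whose number the RefSeq gene table gives as a synonym of wb, had 0.92 FPKM in mip40, 0.286 FPKM in comr, 2.29 FPKM in can and 0.0445 FPKM in bam, against 6.17, 6.45, 6.31 and 6.38 FPKM for wt in those tables. None of its changes passed the authors' test (q = 0.376, 0.224, 0.277 and 0.307 for these 4 mutants). The per-library tables give 1 value for the whole gene, so which transcripts carry the wb level of the mip40 libraries cannot be read from them.

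LanB1 transcripts also differ in the authors' deposited tables. CG7123-RB had 22.5 FPKM in mip40/bam and was listed at 0 in bam (q = 0.252), while CG7123-RA had 24.3 FPKM in mip40/bam and 57.4 FPKM in bam (q = 0.000382). The sum over both transcripts of mip40/bam was thus closer to bam than the value of CG7123-RA alone.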
